A study of Homo sapiens with 6 samples.

Results

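The integrated stress response is the programme of genes that the transcription factor ATF4 drives when translation initiation is slowed, and 39 of its genes were followed here among the 63677 genes counted. They were taken from a given list of gene symbols, matched to the counted genes through the symbols in the authors' table, with the identifier of the highest total count where a symbol had several. The cells were RPMI-8402, an established T-cell acute lymphoblastic leukaemia line, which in every sample expressed Cas9 stably and was grown in serum free of tetracycline. The DOX group held 3 samples treated with doxycycline, which switched on the guide RNAs, and the DMSO group held 3 samples given the solvent DMSO, and all were harvested after 72 hours. The labels differ on the target: both MYC and MYCN are named for the series, MYC alone in the protocol of the treatment, and MYCN in the genotype of DOX, whose counterpart in DMSO is control. Doxycycline on cells lacking guides was not analysed here, so effects of the drug and of the guides cannot be told apart.

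In this pathway, the kinases EIF2AK1 to EIF2AK4 sense stresses such as amino acid shortage, unfolded protein in the endoplasmic reticulum (ER), viral RNA or haem shortage and phosphorylate the initiation factor eIF2. Most translation slows, while ATF4 messenger RNA, which has short upstream reading frames, is translated more, so ATF4 protein can rise without its messenger. ATF4 pairs with C/EBP family proteins and switches on genes for amino acid synthesis and uptake, tRNA charging, other transcription factors and the feedback that restores translation. MYC-driven leukaemia cells place high demands on amino acid supply, which this pathway serves.

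The DNA element that ATF4 and C/EBP partners bind together, the amino acid response element, has the letters TGATGNAA. It was searched on both strands of RefSeq promoters (GRCh38.p14, 250 bases before to 50 after each annotated start), which were listed for 30 of the 39 genes. At least 1 window of 9 of these 30 genes held the element, against 4.46% of 27305 gene symbols. By window the shares were 9 of 45 for the members and 3.62% of all 35116 windows; members were chosen as known ATF4 genes, so this is no independent evidence. The element sites are shown because they are where the factor named by this programme could bind; a match is a description of letters and not of binding. Each line runs 5′ to 3′ on the gene's strand, with the element in capitals, and in SLC1A4, SLC3A2, CHAC1 and FGF21 the capitals show its reverse complement:
ATF3: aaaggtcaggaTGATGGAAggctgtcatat
SLC1A4: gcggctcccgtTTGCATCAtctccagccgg
ASNS: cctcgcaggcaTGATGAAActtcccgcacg
SLC3A2: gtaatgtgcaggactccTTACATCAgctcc
SLC7A1: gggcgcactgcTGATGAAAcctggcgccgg
JDP2: atagccggggcTGATGCAAcccgtcccgcc
CHAC1: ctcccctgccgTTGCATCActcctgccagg
CEBPG: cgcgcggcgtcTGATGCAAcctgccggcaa
FGF21: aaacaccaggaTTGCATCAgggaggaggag
Their positions are ATF3 chr1:212565205-212565234, SLC1A4 chr2:64989381-64989410, ASNS chr7:97872458-97872487, SLC3A2 chr11:62881719-62881748, SLC7A1 chr13:29595663-29595692, JDP2 chr14:75427995-75428024, CHAC1 chr15:40953251-40953280, CEBPG chr19:33374060-33374089, FGF21 chr19:48755459-48755488, with ASNS and SLC7A1 on the minus strand and the others on the plus strand. Those of SLC3A2 and SLC7A1 lie 38 and 8 bases into the transcribed sequence. A related element, TGACGTCA, the cAMP response element, was in 1 member promoter, that of PPP1R15A (chr19:48872352-48872381, plus strand), and in 1.85% of all windows:
PPP1R15A: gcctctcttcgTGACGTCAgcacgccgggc

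The 250 bases before the start of CHAC1 and of ASNS are given whole, since both hold the element. CHAC1 had less and ASNS more messenger in every DOX library than in every DMSO library, and the pair was chosen for this. Such gaps occurred in 15.6% (DOX below) and 14.6% (DOX above) of all genes tested. The edgeR test described below called neither gene (adjusted p = 0.0908 and 0.202), and DESeq2 called CHAC1 only. The CHAC1 stretch is chr15:40953221-40953470 on the plus strand and the ASNS stretch chr7:97872409-97872658 on the minus strand, again with the element in capitals:
CHAC1: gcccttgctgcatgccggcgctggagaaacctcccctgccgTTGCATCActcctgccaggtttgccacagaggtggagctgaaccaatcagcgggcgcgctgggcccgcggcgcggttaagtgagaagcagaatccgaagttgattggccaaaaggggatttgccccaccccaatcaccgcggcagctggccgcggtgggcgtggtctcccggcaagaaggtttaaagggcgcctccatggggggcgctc
ASNS: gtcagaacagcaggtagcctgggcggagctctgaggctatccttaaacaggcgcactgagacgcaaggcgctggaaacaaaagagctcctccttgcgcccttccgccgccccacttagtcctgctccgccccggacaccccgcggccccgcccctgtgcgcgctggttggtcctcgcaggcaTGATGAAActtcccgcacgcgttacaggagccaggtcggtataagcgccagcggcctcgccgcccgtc

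Libraries are named by their group and the number in the count columns, DOX 12, 24 and 36 and DMSO 11, 23 and 35, and values are listed in that order. Total counts were 28602145 to 28911373 in DOX and 28952786 to 29204148 in DMSO. MYCN was lower in every DOX library, at 46.2, 50.0 and 53.7 CPM (read counts relative to the scaled library total), than in DMSO, at 76.8, 110 and 86.9 CPM, and MYC was at 206, 200 and 193 CPM in DOX against 279, 201 and 256 CPM in DMSO. EdgeR's quasi-likelihood test, adjusted by Benjamini-Hochberg over all 15949 genes tested, called neither at 0.05 (adjusted p = 0.0726 and 0.176), and DESeq2 called MYCN (adjusted p = 1.08e-05). Of 7 T-ALL markers, 6 were expressed and CD1E was near 0; their summed level was 1009 to 1038 CPM in DOX and 1049 to 1143 CPM in DMSO, and DESeq2 called LMO1 and PTCRA lower. The myeloid and erythroid markers CD14, LYZ, CSF1R and HBB reached at most 0.315 CPM in any library, COL1A2 at most 0.0348 CPM, and the B cell marker MS4A1 was at 0. The B cell marker CD79A had 0.693 to 1.11 CPM in DOX and 0.786 to 1.05 CPM in DMSO, and the fibroblast marker COL1A1 stood at 9.35, 9.18 and 9.70 CPM in DOX against 7.11, 2.44 and 2.77 CPM in DMSO. COL1A1 was thus higher in every DOX library, DMSO 11 was the DMSO library nearest to DOX, and DESeq2 called it (log2 fold change 1.20 ± 0.36, adjusted p = 0.0148), edgeR not (adjusted p = 0.107). The part of these markers in any difference was not tested. The labels do not tell whether replicates are separate cultures, and the p-values then reflect only library-to-library spread, possibly technical.

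DMSO 11 stood apart in many genes, within this programme and outside it, and is given separately throughout. Over all genes edgeR called 5 with it and 8109 without it. Of the 39 genes, 35 passed the filter on low counts and were tested. In 32 of them DMSO 11 was the lowest DMSO library (91.4%, against 43.8% of all genes tested). It was the highest DMSO library in 3 of the 35, against 6502 of all 15949 genes tested. DMSO 23 and DMSO 35 both lay above all DOX libraries in 29 of the 35 (82.9%, against 33.7% of all genes tested). DMSO 11 lay below all DOX libraries in 22, among them in 8 and above them in 5. These are 62.9%, 22.9% and 14.3% of the members, against 34.1%, 31.3% and 34.6% of all genes tested. The 3 DOX libraries were close to each other: the median range of the members was 0.13 on the log2 scale in DOX and 0.79 in DMSO, where all tested genes gave 0.16 and 0.40. In a bulk sample, fewer cells with a programme and less RNA per cell cannot be told apart.

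Over the 35 tested genes the median log2 fold change, DOX over DMSO, was -0.46, where the median of all tested genes was -0.00. EdgeR called 0 of them at an adjusted p of 0.05 (0.0313% of all genes were called in either direction), limma voom called 0 (0.0313%), and 14 lower and 0 higher had an unadjusted edgeR p under 0.05, against 14.8% and 11.2% of all genes. Limma voom gave 8 lower and 1 higher at that unadjusted level, against 13.1% and 12.6% of all genes. DESeq2 called 4 lower, ATF3, CHAC1, EIF4EBP1 and PYCR1, and 0 higher, against 6.44% and 3.37% of all genes. The groups did not overlap in 5 genes, with DOX below DMSO in 4 and above it in 1, against 15.6% and 14.6% of all genes. Without DMSO 11 the median was -0.65 and edgeR called 27 lower and 3 higher, in a fit that called 25.7% of all genes lower and 23.7% higher. Without DMSO 23 the median was -0.29 and edgeR called 0, with 4 of 35 genes at an unadjusted p under 0.05, all lower, close to the 8.55% of all genes that were lower there.

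**Figure D1:**
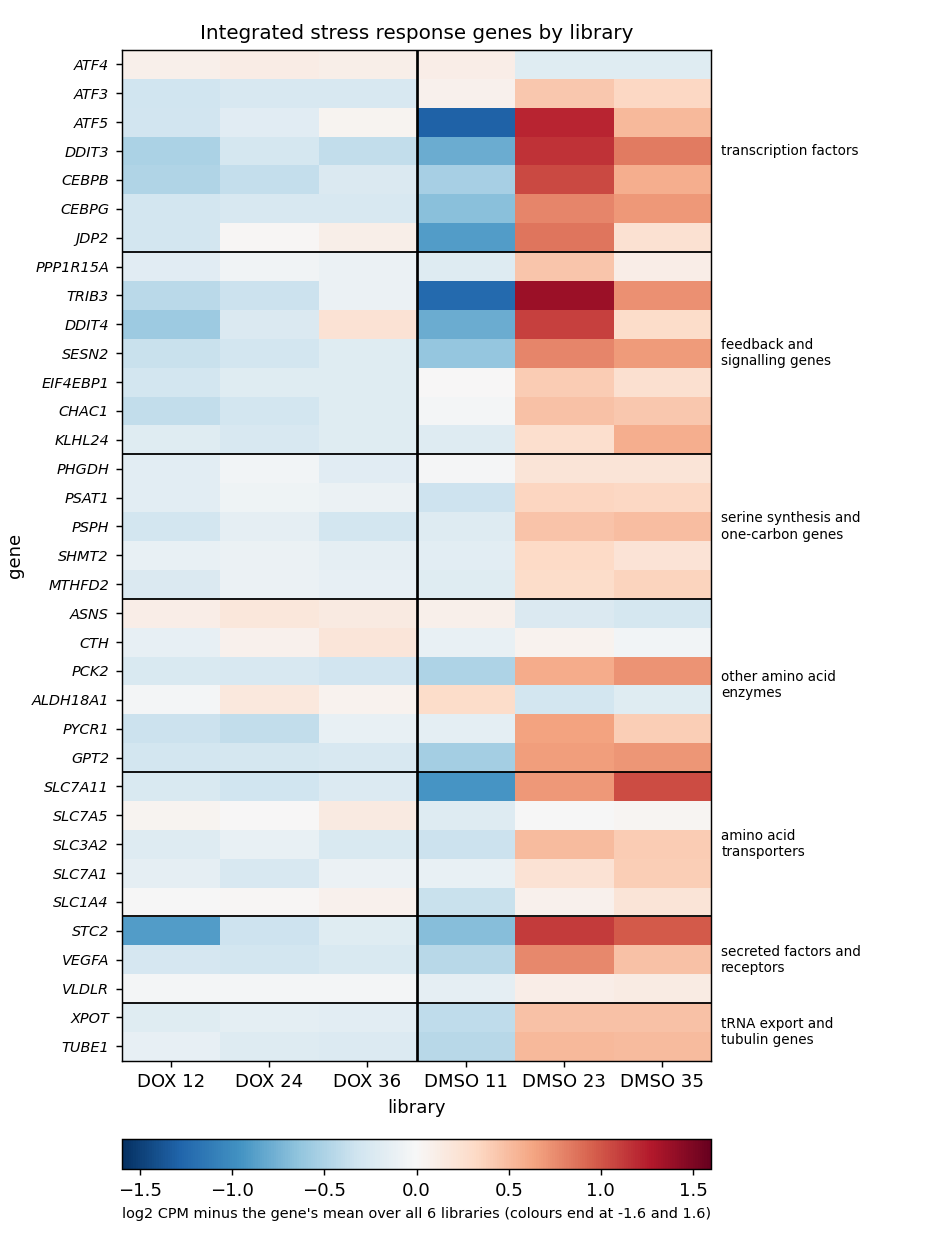
Each row is a gene and each column a library, and the colour is the log2 CPM minus the gene's mean over all 6 libraries; black lines part the groups and the roles. DMSO 23 and DMSO 35 are red in most rows, while DMSO 11 and the DOX libraries are blue; ATF4, ASNS and ALDH18A1 show the opposite pattern.

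Of the 7 transcription factors tested, 6 were below 0 and 1, ATF4, was above, with a median of -0.62, and none was called by edgeR. ATF4 itself (ENSG00000128272, chromosome 22), the activator of the programme, had 567, 585 and 571 CPM in DOX, against 577, 469 and 471 CPM in DMSO. DMSO 11 lay among the DOX libraries, and its log2 fold change was 0.18 ± 0.11 (SE), not called by edgeR (adjusted p = 0.301). DDIT3 (ENSG00000175197, chromosome 12), also called CHOP, a factor that promotes cell death under lasting stress, had 21.5, 25.2 and 23.2 CPM in DOX, against 17.5, 68.8 and 54.6 CPM in DMSO. DMSO 11 was thus the lowest of all 6 libraries for DDIT3, and the fold change of -1.01 ± 0.40 was not called (adjusted p = 0.164). DMSO 23 and DMSO 35 were below every DOX library for ATF4 and above every DOX library for DDIT3.

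ATF3 (ENSG00000162772, chromosome 1), a stress-induced factor that can repress transcription, had 75.6, 78.6 and 78.6 CPM in DOX, against 98.9, 127 and 118 CPM in DMSO. All DOX libraries were below all DMSO libraries, DMSO 11 included, and the log2 fold change was -0.56 ± 0.10. DESeq2 called ATF3 lower (adjusted p = 0.000657), edgeR did not (adjusted p = 0.0795), and the DESeq2 call was lost without DOX 12 (adjusted p = 0.0631). ATF5 (ENSG00000169136, chromosome 19), a relative of ATF4 that is controlled at translation in a like way, had 156, 171 and 199 CPM in DOX, against 78.4, 450 and 278 CPM in DMSO. DMSO 23 was 5.74-fold above DMSO 11 for ATF5, and its fold change of -0.62 ± 0.49 was near 0 (-0.03) without DMSO 23. CEBPB and CEBPG, C/EBP proteins that can pair with ATF4, were at -0.87 ± 0.32 and -0.67 ± 0.31; CEBPG held 96.2 to 98.3 CPM in DOX and 73.6 to 202 CPM in DMSO. JDP2, a repressor that binds AP-1 and ATF sites, was at -0.29 ± 0.37, with 3.71 to 4.87 CPM in DOX and 2.43 to 8.33 CPM in DMSO, and the value was 0.16 without DMSO 23. The co-regulator NUPR1 had 1, 0 and 0 counts in DOX and 2, 0 and 0 counts in DMSO and was not tested.

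The feedback and signalling genes were all below 0 in log2 fold change, with a median of -0.55 over 7 genes, and none was called by edgeR. EIF4EBP1 (ENSG00000187840, chromosome 8), which holds back the cap-binding factor eIF4E, had 108, 116 and 115 CPM in DOX, against 133, 176 and 157 CPM in DMSO. CHAC1 (ENSG00000128965, chromosome 15), which degrades glutathione, had 19.4, 20.9 and 22.2 CPM in DOX, against 25.0, 35.2 and 34.4 CPM in DMSO. For these genes the groups did not overlap, and DMSO 11 was the DMSO library nearest to DOX. The log2 fold changes were -0.46 ± 0.11 and -0.60 ± 0.14, with DESeq2 adjusted p-values of 0.0120 and 0.00804 and edgeR adjusted p-values of 0.0915 and 0.0908. The DESeq2 calls of EIF4EBP1 and CHAC1 held without DMSO 11 and were lost without any other library, with adjusted p-values of 0.104 to 0.189 and of 0.0747 to 0.160.

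TRIB3 (ENSG00000101255, chromosome 20), a pseudokinase that ATF4 and CHOP induce and that damps ATF4, had 120, 127 and 152 CPM in DOX, against 68.0, 417 and 269 CPM in DMSO. DMSO 23 was 6.14-fold and DMSO 35 was 3.95-fold above DMSO 11, the widest such spread among the 35 genes for DMSO 23, while DOX lay between them, and the fold change of -0.92 ± 0.51 was not called (adjusted p = 0.277). DDIT4 and SESN2, which restrain the growth kinase mTORC1, were at -0.55 ± 0.41 and -0.69 ± 0.30, with 12.3 to 21.6 and 55.4 to 62.2 CPM in DOX and 10.6 to 39.4 and 46.2 to 122 CPM in DMSO. PPP1R15A, the phosphatase subunit (GADD34) that reverses eIF2 phosphorylation, was at -0.25 ± 0.15, with 27.9 to 30.4 CPM in DOX and 27.4 to 42.8 CPM in DMSO. KLHL24, a substrate adaptor of a ubiquitin ligase, was at -0.46 ± 0.17. The phosphatase gene therefore varied less among the DMSO libraries than TRIB3, DDIT4 and SESN2 did, with a range of 0.64 on the log2 scale against 2.62, 1.88 and 1.40.

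**Figure D2:**
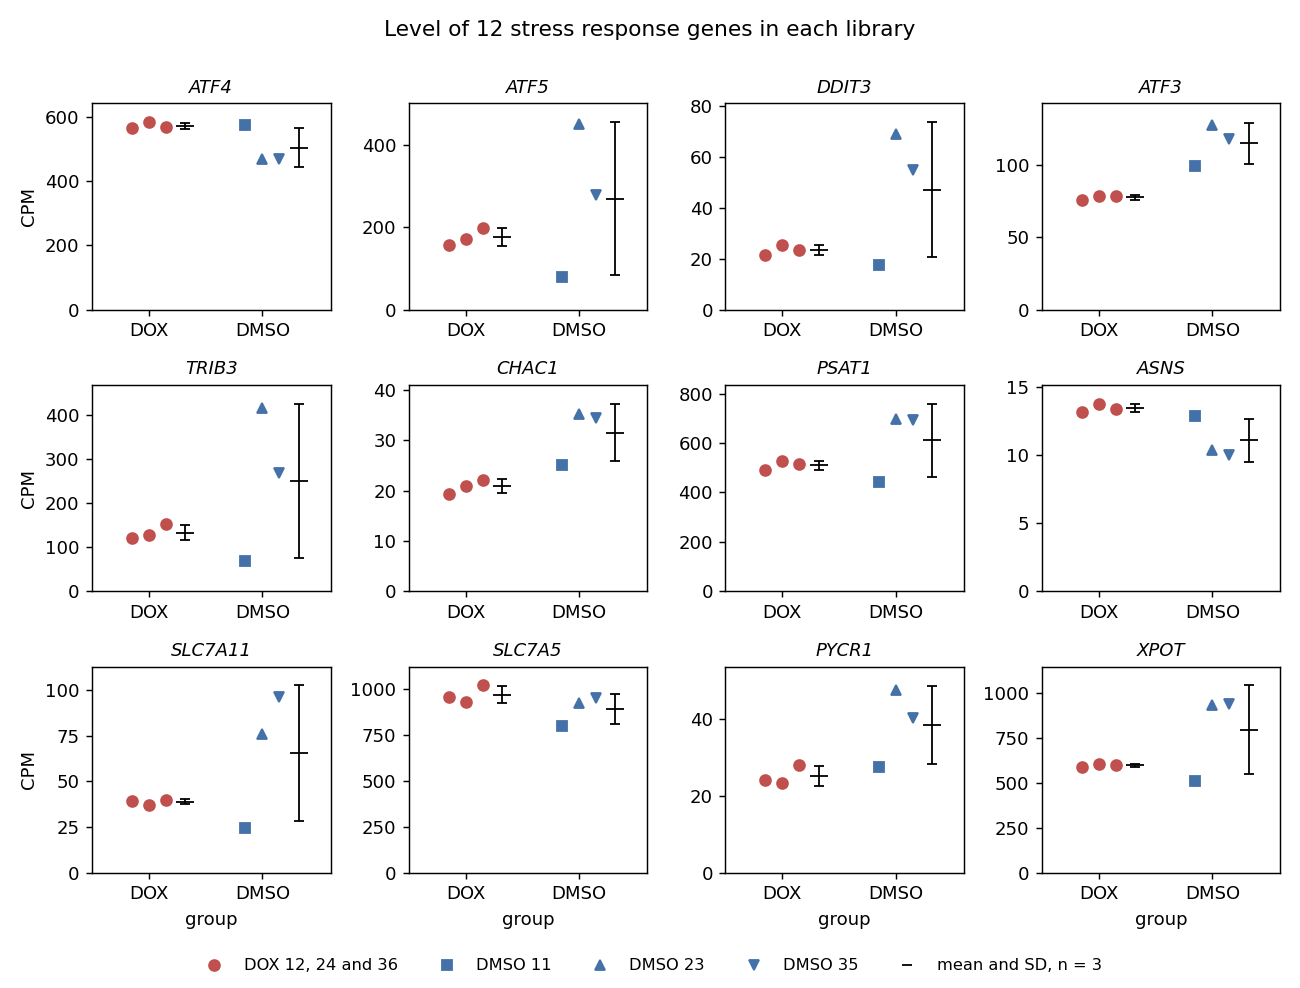
Each panel gives the CPM of a gene in the DOX and DMSO libraries (points) with the group mean and SD (black, n = 3); every axis starts at 0. DMSO 11 (square) lies near or below the DOX libraries for ATF5, DDIT3, TRIB3, PSAT1, SLC7A11 and XPOT, and between DOX and the other DMSO libraries for ATF3 and CHAC1.

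Serine synthesis branches from glycolysis and feeds the folate pathway that supplies nucleotides. Of its 6 genes 5 were tested, all below 0, with a median of -0.27, and none was called by edgeR or by DESeq2. PHGDH (ENSG00000092621, chromosome 1), the entry enzyme, had 414, 453 and 410 CPM in DOX, against 460, 535 and 540 CPM in DMSO. All DOX libraries were below all DMSO libraries, by a narrow gap to DMSO 11, and the log2 fold change was -0.27 ± 0.10 (edgeR adjusted p = 0.154). PSAT1 (ENSG00000135069, chromosome 9), the aminotransferase that follows, had 490, 526 and 516 CPM in DOX, against 441, 699 and 696 CPM in DMSO, and DMSO 11 was again the lowest library. Its fold change was -0.26 ± 0.17 (adjusted p = 0.348).

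PSPH, the phosphatase of the last step, was at -0.52 ± 0.17, with 50.6 to 55.7 CPM in DOX and 53.6 to 86.8 CPM in DMSO. DESeq2 gave it an adjusted p of 0.0506, and in the authors' deposited table PSPH has an adjusted p of 0.0445. At 0.05 the authors' comparison called 5 members lower, PSPH, ATF3, CHAC1, EIF4EBP1 and PYCR1, among 941 of 14237 genes. The mitochondrial folate enzymes SHMT2 and MTHFD2 were at -0.26 ± 0.13 and -0.32 ± 0.14, with 298 to 310 and 345 to 377 CPM in DOX and 293 to 414 and 354 to 512 CPM in DMSO. ALDH1L2, a mitochondrial formyl-folate dehydrogenase, had 6, 6 and 3 counts in DOX and 6, 8 and 4 counts in DMSO and was not tested. The serine genes spread less among the DMSO libraries than the transcription factors did: the median range was 0.53 against 1.58 on the log2 scale.

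The other amino acid enzymes were split, with 3 of 6 above 0 and 3 below and a median of -0.26. ASNS (ENSG00000070669, chromosome 7), which makes asparagine and whose promoter holds the element, had 13.2, 13.8 and 13.4 CPM in DOX, against 12.9, 10.4 and 10.0 CPM in DMSO. It was the only member tested whose DOX libraries all lay above all DMSO libraries, with a fold change of 0.28 ± 0.13 (edgeR adjusted p = 0.202, DESeq2 0.221), and DMSO 11 lay next to DOX. ALDH18A1 (ENSG00000059573, chromosome 10), the first enzyme of proline synthesis from glutamate, had 181, 209 and 193 CPM in DOX, against 228, 152 and 162 CPM in DMSO. DMSO 11 was the highest library for ALDH18A1, and the value of 0.11 ± 0.15 was -0.01 without DMSO 23. PYCR1 (ENSG00000183010, chromosome 17), the last enzyme of proline synthesis, had 24, 23.2 and 28.1 CPM in DOX, against 27.4, 47.6 and 40.2 CPM in DMSO. The groups overlapped at DMSO 11, and the fold change of -0.61 ± 0.19 was called by DESeq2 (adjusted p = 0.0324) and not by edgeR (adjusted p = 0.111). Its DESeq2 call held without DMSO 11 and was lost without any other library (adjusted p = 0.121 to 0.286).

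PCK2 (ENSG00000100889, chromosome 14), the mitochondrial enzyme that makes phosphoenolpyruvate, had 77.2, 76.6 and 74.2 CPM in DOX, against 65.4, 138 and 151 CPM in DMSO. GPT2, the mitochondrial alanine aminotransferase, held 72.3 to 74.2 CPM in DOX and 60.3 to 145 CPM in DMSO. Both had DMSO 11 below all DOX libraries and both other DMSO libraries above them, and their fold changes were -0.64 ± 0.26 and -0.66 ± 0.28, neither called. CTH, which makes cysteine from cystathionine, was at 0.09 ± 0.15, with 4.23 to 5.29 CPM in DOX and 4.25 to 4.81 CPM in DMSO, and was not called with or without DMSO 11 (edgeR adjusted p = 0.718 and 0.805).

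Among the 5 amino acid transporters the median was -0.35, with 3 below 0 and 2 above, and none was called by edgeR or by DESeq2. SLC7A5 (ENSG00000103257, chromosome 16), the LAT1 carrier of leucine and other large neutral amino acids, had 954, 930 and 1019 CPM in DOX, against 798, 922 and 948 CPM in DMSO. The groups overlapped, and the fold change was 0.12 ± 0.10 (edgeR adjusted p = 0.470). SLC3A2 (ENSG00000168003, chromosome 11), the heavy chain (CD98) that carries SLC7A5 and SLC7A11 to the membrane, had 376, 400 and 368 CPM in DOX, against 343, 613 and 578 CPM in DMSO, a fold change of -0.42 ± 0.20 (adjusted p = 0.212). For the chains of the LAT1 carrier, DMSO 23 was 1.79-fold above DMSO 11 for SLC3A2 and 1.16-fold for SLC7A5. DMSO 11 was the lowest library for both, and a difference between the 2 genes was not tested.

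SLC7A11, the cystine importer that pairs with the same heavy chain, was at -0.75 ± 0.40, with 37.3 to 40.0 CPM in DOX and 24.2 to 96.1 CPM in DMSO. SLC7A1, a carrier of cationic amino acids, was at -0.35 ± 0.13, with 271 to 303 CPM in DOX and 298 to 425 CPM in DMSO. SLC1A4, a carrier of serine and other small neutral amino acids, was at 0.04 ± 0.14, with 67.2 to 71.2 CPM in DOX and 52.7 to 77.9 CPM in DMSO, and at -0.11 without DMSO 11.

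Secreted factors of the programme were mostly faint. VEGFA (ENSG00000112715, chromosome 6), the vessel growth factor, had 175, 171 and 178 CPM in DOX, against 156, 360 and 292 CPM in DMSO, a fold change of -0.62 ± 0.25 (edgeR adjusted p = 0.172). VLDLR (ENSG00000147852, chromosome 9), a lipoprotein receptor, was nearly level, with 79.0, 78.5 and 78.6 CPM in DOX, against 73.0, 86.1 and 87.9 CPM in DMSO, a fold change of -0.06 ± 0.09. STC2, a secreted glycoprotein, was at -1.16 ± 0.45 (adjusted p = 0.159), the lowest value of the 35, at 0.762 to 1.29 CPM in DOX and 0.893 to 3.29 CPM in DMSO. GDF15, a circulating stress cytokine, had 1, 1 and 4 counts in DOX and 0, 11 and 5 counts in DMSO, and the hormone FGF21 had 0, 0 and 1 counts in DOX and 0, 1 and 0 counts in DMSO. Neither was tested, and at this depth no difference was detectable, although the FGF21 promoter holds the element. A count of 0 allows up to 3 counts, for counting error alone.

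XPOT (ENSG00000184575, chromosome 12), which exports tRNA from the nucleus, had 590, 606 and 602 CPM in DOX, against 509, 937 and 941 CPM in DMSO. TUBE1 (ENSG00000074935, chromosome 6), epsilon tubulin, had 37.8, 35.8 and 35.7 CPM in DOX, against 30.3, 59.4 and 58.6 CPM in DMSO. Both were lowest in DMSO 11 and highest in the other DMSO libraries, with fold changes of -0.41 ± 0.21 and -0.44 ± 0.23 (edgeR adjusted p = 0.253 and 0.246).

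With DMSO 11 left out, the tested genes that edgeR called higher were ATF4 (0.29 ± 0.07, adjusted p = 0.0016), ASNS (0.40 ± 0.10, adjusted p = 0.00241) and ALDH18A1 (0.31 ± 0.07, adjusted p = 0.00122). The 5 not called in that fit were DDIT4, CTH, SLC7A5, SLC1A4 and VLDLR. Among the 27 called lower, DDIT3 was at -1.41 ± 0.09 (adjusted p = 2.31e-09), TRIB3 at -1.37 ± 0.22 (adjusted p = 0.00606), SESN2 at -1.01 ± 0.07 (adjusted p = 7.28e-10) and SLC7A11 at -1.15 ± 0.08 (adjusted p = 5.39e-09). This fit called 25.7% of all genes lower and 23.7% higher. Its values rest on DMSO 23 and DMSO 35 alone on the DMSO side, and DMSO 11 was singled out by its values in these data. Leaving it out removes much of the DMSO spread (DDIT3 standard error 0.40 with it, 0.09 without), so the small p-values depend on that choice. Against DMSO 11 alone the median of the DOX mean over the 35 genes was higher by 0.17 on the log2 scale. By contrast, 29 of the 35 were lower in every DOX library than in both DMSO 23 and DMSO 35 (82.9%, against 33.7% of all genes tested). ATF3, EIF4EBP1, CHAC1 and PHGDH were lower in DOX against each of the 3 DMSO libraries (11.4% of the 35, against 15.6% of all genes tested).

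**Figure D3:**
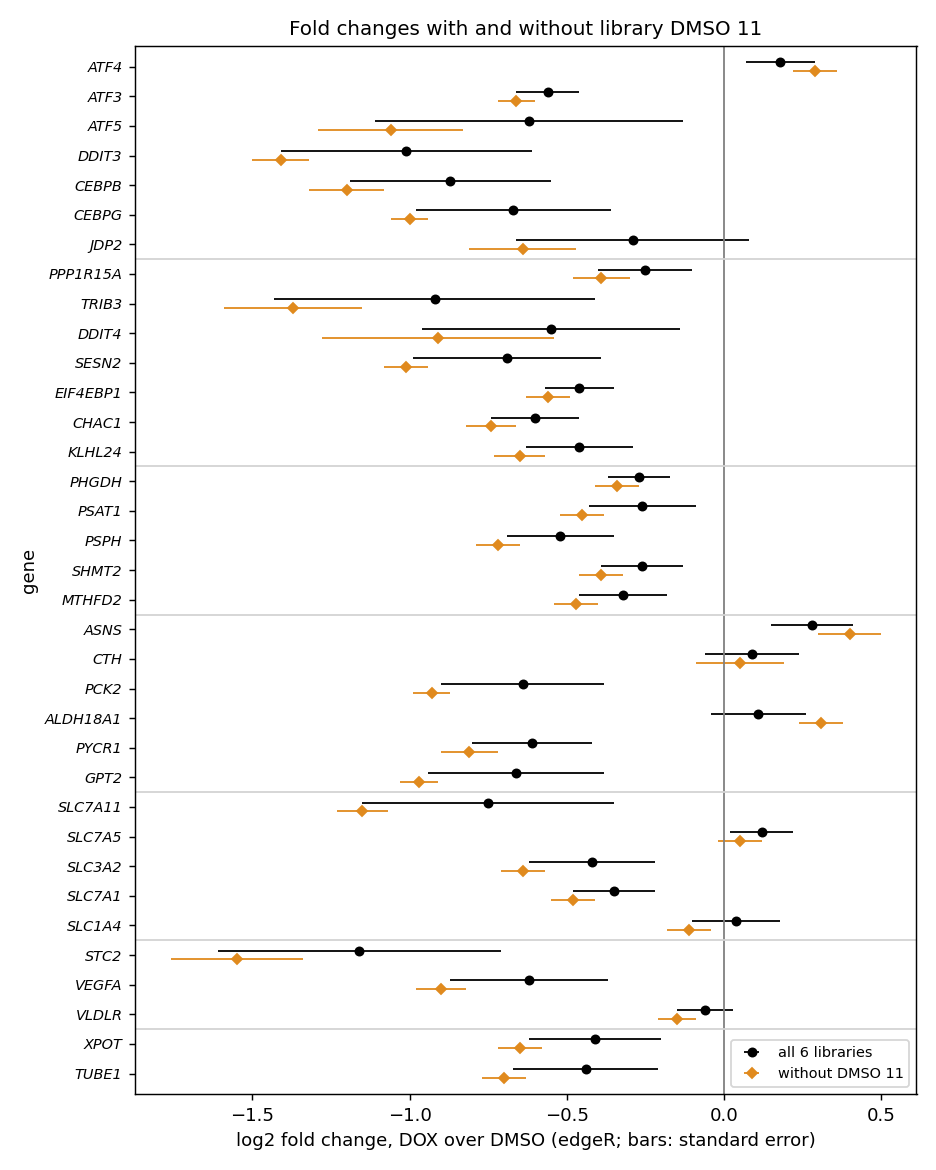
Log2 fold changes of the 35 tested genes, DOX over DMSO, with standard errors, from all 6 libraries (black) and without DMSO 11 (orange). Most genes lie further from 0 and have shorter bars without DMSO 11; DDIT3, for example, is at -1.01 with it and at -1.41 without it.

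The pathway was then read on both sides of these genes. Of 14 upstream genes (the 4 eIF2 kinases, GCN1L1, PPP1R15B and the eIF2 and eIF2B subunits) edgeR called 0, with 2 higher and 1 lower at an unadjusted p under 0.05, near the 11.2% and 14.8% of all genes. DESeq2 called 1 of the 14 lower, the eIF2B subunit EIF2B3, near the 6.44% of all genes, and the median was 0.03. EIF2B3 had 32.5, 35.3 and 32.9 CPM in DOX, against 39.5, 48.0 and 42.5 CPM in DMSO (-0.37 ± 0.10, DESeq2 adjusted p = 0.0312), and DESeq2's adjusted p reached 0.276 with a library left out. Kinases are named here after their values were seen. The kinase EIF2AK2 (PKR) had 163, 159 and 151 CPM in DOX, against 145, 104 and 118 CPM in DMSO, and the ER kinase EIF2AK3 (PERK) had 28.2, 28.4 and 28.2 CPM in DOX, against 24.8, 21.5 and 23.9 CPM in DMSO. For both kinases all DOX libraries were above all DMSO libraries, and for EIF2B3 and the eIF2 subunit EIF2S3 all were below, so 2 of 14 genes lay each way, against 14.6% and 15.6% of all genes. The kinases had fold changes of 0.37 ± 0.12 and 0.27 ± 0.09 that neither tool called (edgeR adjusted p = 0.128 and 0.132). The amino acid sensor EIF2AK4 (GCN2) was at -0.00 ± 0.08.

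A list of 24 further ATF4 targets, of which 23 were tested, had a median of -0.38, with 21 below 0 and 2 above. EdgeR called 0 of them, with 9 lower and 0 higher at an unadjusted p under 0.05 (14.8% and 11.2% of all genes), and limma voom gave 5 lower and 0 higher at that level (13.1% and 12.6%). DESeq2 called 2 of the 23 lower, near the 6.44% of all genes. The first was GADD45A, a growth arrest gene, with 11.8, 11.5 and 12.3 CPM in DOX, against 18.0, 29.5 and 26.0 CPM in DMSO (-1.05 ± 0.17, DESeq2 adjusted p = 1.84e-05), which DESeq2 also called with any library left out (adjusted p at most 0.0061). The other was the glycyl tRNA synthetase GARS, with 299, 301 and 309 CPM in DOX, against 325, 426 and 476 CPM in DMSO (-0.43 ± 0.14, DESeq2 adjusted p = 0.0433, at most 0.273 with a library left out). The lowest value was that of BBC3, the death gene PUMA, at -1.58 ± 0.52, with 2.81, 2.84 and 3.51 CPM in DOX, against 2.54, 15.3 and 9.43 CPM in DMSO. BBC3 was chosen after its values were seen.

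A list of 15 ER folding and degradation genes, known from the other arms of the unfolded protein response, had a median of 0.15, with 11 above 0 and 4 below. It holds the chaperones and folding factors HSPA5, HSP90B1, CALR, DNAJB9, DNAJC3, SDF2L1, PDIA4, PDIA6, CRELD2, MANF and HYOU1, the degradation genes EDEM1, SEL1L and SYVN1, and the transcription factor XBP1. EdgeR called 0, with 2 higher and 1 lower (XBP1, -0.20 ± 0.08) at an unadjusted p under 0.05, near the 11.2% and 14.8% of all genes, and DESeq2 called 0. CALR, an ER calcium-binding chaperone, had 1106, 1188 and 1115 CPM in DOX, against 1141, 817 and 741 CPM in DMSO, and HSP90B1 had 408, 419 and 423 CPM in DOX, against 422, 276 and 279 CPM in DMSO. HSPA5 (BiP), chosen after its values were seen, had 224, 242 and 235 CPM in DOX, against 228, 117 and 116 CPM in DMSO. In these 3 chaperones DMSO 11 was at the DOX level, and DMSO 23 and DMSO 35, the high libraries for DDIT3 and TRIB3, were the low ones. Of the 15 ER genes, both of these libraries lay below all DOX libraries in 10, against 32.8% of all genes. Both lay above all DOX libraries in 4 (DNAJB9, DNAJC3, EDEM1 and XBP1), against 33.7%. Without DMSO 11 the medians of the upstream genes, the further targets and the ER genes were 0.04, -0.59 and 0.26.

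**Figure D4:**
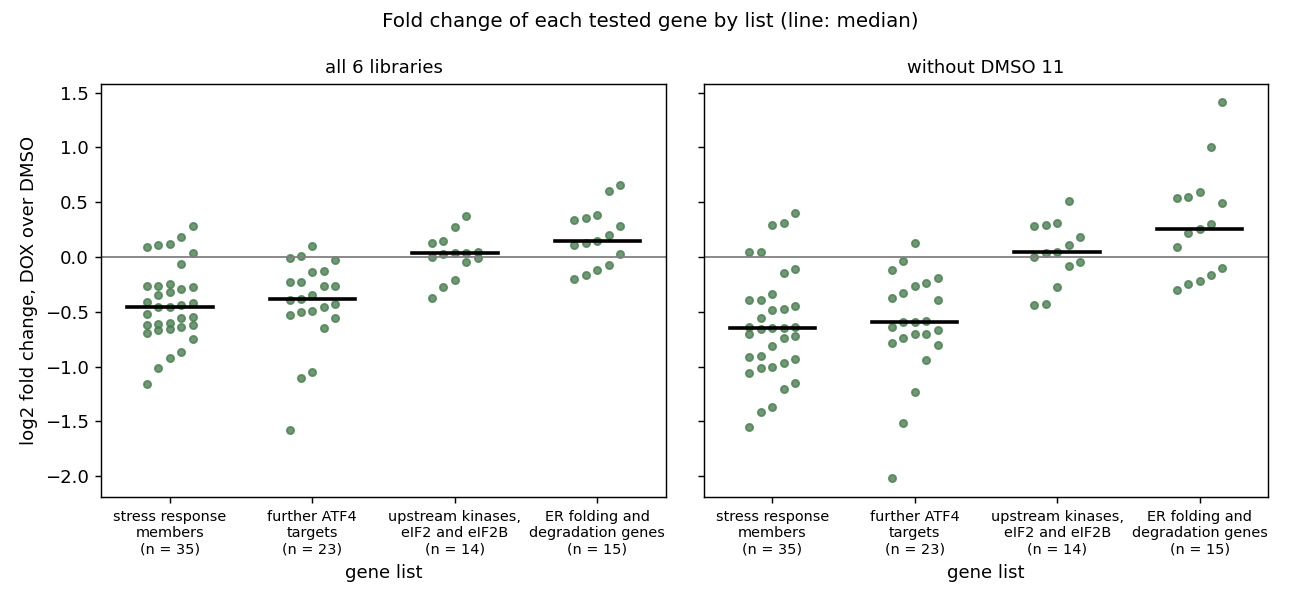
Each point is the log2 fold change, DOX over DMSO, of a tested gene, by list, from all 6 libraries (left) and without DMSO 11 (right), and the line is the median. Stress response genes and further ATF4 targets lie mostly below 0 (medians -0.46 and -0.38 on the left), upstream genes around 0 and ER folding and degradation genes mostly above it.

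Between genes, levels were compared as CPM per kilobase of annotated exon (GENCODE 29, all isoforms joined). PSAT1 (233 in DOX, 280 in DMSO), ATF4 (228 and 201) and SLC7A5 (204 and 187) led the 39 genes, followed by EIF4EBP1 (105 and 145) and XPOT (81.4 and 108). At the other end of the 35 tested members were STC2 (0.174 and 0.389), JDP2 (0.708 and 0.865), CTH (1.99 and 1.87) and ASNS (3.02 and 2.49). The asparagine synthetase messenger was thus among the faintest of the tested members in both groups.

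Reads of some members could be shared with other genes. Exons of DDIT3 overlap those of MARS on the other strand in GENCODE 29, and MARS held 100062 counts in all libraries against 6144 for DDIT3. They also overlap exons of MBD6 on the other strand, which held 12163 counts. The libraries were strand-specific per the labels, but the strand setting of the counting is unknown here. MARS, the methionyl tRNA synthetase gene, had 468, 469 and 456 CPM in DOX, against 447, 844 and 766 CPM in DMSO. Its DMSO libraries had the same order as those of DDIT3. MARS is also in the list of further ATF4 targets. DMSO 11 was the lowest DMSO library in 20 of the 23 tested there (87%, against 43.8% of all genes tested). The exons of ATF5 likewise overlap those of NUP62 (39276 counts against 38831), and those of VLDLR overlap VLDLR-AS1, which held 13.5% as many counts. The part of these overlaps in the values was not tested. Pseudogenes named after a member held at most 0.465% as many counts as the gene, except PSPH with 4.88%.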

How the data were processed

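The authors deposited raw read counts per Ensembl gene for 6 libraries, and a table of their own comparison, whose columns, per the file headers, are a mean normalised signal, log2 fold changes, their standard errors, a test score and p-values. The submitters' processing notes name DESeq2 1.12.4, featureCounts, STAR 2.5.2a and the build hg19, with no role or order. Libraries were strand-specific per the labels' protocols; how strand was set in counting, and which annotation was used, is not given in the sources used here. Count columns show the group but carry numbers that are in no label, so no column was tied to a numbered replicate. The 92 spike-in rows held 0 counts and were left out.

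Genes that passed filterByExpr were tested after TMM scaling in edgeR 4.0.16 (R 4.3.3, robust quasi-likelihood F test, group as the only term), with Benjamini-Hochberg adjustment over 15949 genes at 0.05. The standard error is the size of the log2 fold change divided by the square root of F. CPM are counts over the library total times its TMM factor, and 2 was the prior count of log2 values. On the same genes, DESeq2 1.42.0 and voom of limma 3.58.1 were alternatives, as were other scalings and filters, and each library left out in turn; DESeq2 with a library left out was added after the data were seen. All 3 tests were tested on simulated data, where DESeq2 made more calls in all, and more false calls, than edgeR or voom. Whether that order holds for these data, in which a DMSO library stood apart, was not tested. The simulation therefore does not show which DESeq2 calls here are false. Members and lists were chosen with earlier results of these data known. Every member is named; values in every library are given for members called by edgeR or DESeq2, those whose groups do not overlap, ATF4, DDIT3 and the 2 with the highest mean CPM in each role; from the other lists, called genes and otherwise the 2 most expressed, with further genes marked where named. Counts cover 3 libraries per group, which sets the precision. The limit given for a count of 0 covers counting error only; standard errors include the spread between libraries. Figures were drawn with matplotlib 3.10.9. Some cell type markers are not reported here.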

Additional observations from a re-analysis of the deposited data

How the results depend on the processing

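All 35 tested members kept the sign of their fold change under the 7 alternatives of test, scaling and filter, and their median ran from -0.47 to -0.38 there. Counts of calls moved with the test, the filter and DMSO 11. Over all genes, 5 were called in the main fit, 1383 by DESeq2, 1761 with no filter, 1 at an adjusted p of 0.01, and 0 to 8109 with a library left out, the highest without DMSO 11 and 0 without any of the others, where 2273 to 2629 genes had an unadjusted p under 0.05. Of the members, edgeR called 0, DESeq2 4, edgeR with no filter 7 lower (3.62% of all genes were called lower there), and 0 to 30 were called with a library left out. Those fits without DMSO 23, DMSO 35 or a DOX library left 4 to 7 members at an unadjusted p under 0.05. Over all genes it was 2273 to 2629 of the 16289 to 16346 tested there. Of the upstream genes 0 were called, 1 by DESeq2, 2 with no filter and 0 to 8 with a library left out. Of the further ATF4 targets the counts were 0, 2, 2 and 0 to 18, and of the ER folding and degradation genes 0 to 12 with a library left out. The highest counts came without DMSO 11, in a fit that called 25.7% of all genes lower and 23.7% higher. There 3 upstream genes were lower and 5 higher, 18 further targets were lower and 0 higher, and 3 ER genes were lower and 9 higher. The cause was not tested. At an unadjusted p under 0.05, 14 members were lower and 0 higher, against 8 and 1 with limma voom and 13 and 1 with upper quartile scaling, library totals alone or a filter of 1 CPM in 3 libraries. At that level 1782 of all genes were higher and 2368 lower, and with upper quartile scaling 2195 and 1938. The members' median ran from -0.65 without DMSO 11 to -0.29 without DMSO 23. With the shorter element TGATG, 28.9% of member windows and 32.9% of all windows held a match. No paired analysis was possible because the count columns carry none of the replicate numbers in the labels. With 3 libraries a group, precision is limited by their number and by the spread between DMSO libraries.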
